A study of Homo sapiens with 6 samples.

Results

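The insulin-like growth factor (IGF) genes described here are the 10 genes IGF1, IGF2, IGF1R, IGF2R and IGFBP2 to IGFBP7, taken by name from a table of 62700 gene rows, and all 10 passed the filter on low counts. They were measured by RNA sequencing in A673, a human cell line grown from a Ewing sarcoma, in 3 libraries labelled EWS-FLI1 knockout and 3 labelled parental control with genotype EWS-FLI1 wildtype. The fusion protein EWS-FLI1, made of EWSR1 and the ETS factor FLI1, drives this tumour, and the series asked how it affects alternative splicing. Both genotypes were grown in DMEM with fetal bovine serum, which itself carries growth factors, and no other treatment is given. Neither the clonal origin of the knockout cells nor separate cultures for the replicates are given in the labels, so a difference between clones cannot be told apart from the loss of the fusion. All p-values rest on the spread among these 6 libraries, and that spread may be technical.

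IGF1 and IGF2 are small secreted ligands that promote growth and survival. Both signal through the receptor tyrosine kinase IGF1R, while IGF2R, which is also the cation-independent mannose 6-phosphate receptor, takes IGF2 into the cell for breakdown and carries lysosomal enzymes. The binding proteins hold the ligands outside the cell, and proteases release them again. In Ewing sarcoma, IGF1R signalling is known to be needed for transformation by the fusion, IGF1 has been described as raised by the fusion in mesenchymal progenitor cells, and IGFBP3 as repressed by it.

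The knockout libraries held less IGF1 and IGFBP2 and more IGF2, IGF2R and IGFBP3 to IGFBP7, with the largest rises in the binding proteins IGFBP7, IGFBP4 and IGFBP5. Of the 10 members 8 rose and 2 fell at an edgeR quasi-likelihood adjusted p under 0.05, where 36.3% of the 28485 tested genes rose and 37.5% fell, and one of the 8, IGF1R, rose only under some scalings of the libraries. The median log2 change of the members was 3.67, against -0.06 over all tested genes. In all 10 members the 3 knockout libraries did not overlap the 3 parental ones, as in 76.7% of tested genes. Levels below are TMM-scaled counts per 1e+06 counts (CPM). Every log2 change divides knockout by parental, and its SE is the standard error in the edgeR fit. In RNA from whole cultures, fewer cells of a kind and less RNA per cell cannot be told apart.

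**Figure D1:**
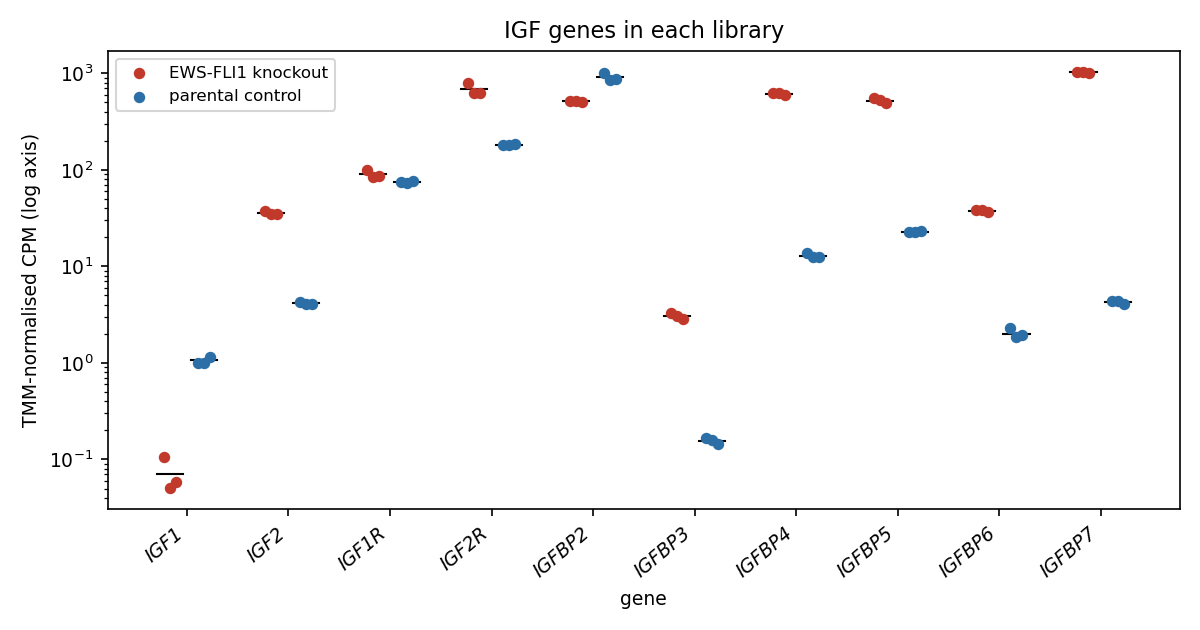
TMM-normalised CPM (log axis) of the 10 IGF genes, with 1 point per library, EWS-FLI1 knockout in red left of parental control in blue, and a black line at the mean of 3 libraries. The knockout points lie below the parental points for IGF1 and IGFBP2 and above them for the other 8 genes, with the smallest gap at IGF1R, whose direction reverses with total counts only.

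Among the ligands, IGF1 was near the lower end of detection in knockout cells and IGF2 was the more abundant transcript in both genotypes. IGF1 (ENSG00000017427.17), on chromosome 12 from 102395874 to 102481839 (GRCh38), had 26.8, 13.2 and 16.2 estimated counts in the knockout libraries, against 383, 381 and 464 in the parental ones. That is 0.106, 0.0502 and 0.0580 CPM in knockout and 1.01, 1.01 and 1.16 CPM in parental libraries. Every knockout library lay below every parental one, with knockout replicate 1 the highest of its group. The log2 change was -3.89 (edgeR SE 0.22, adjusted p = 5.41e-13), and before scaling the mean knockout count was 4.58% of the parental one. Counting error matters most for this member, since 3 counts in a library correspond to between 0.00752 and 0.0117 CPM.

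IGF2 (ENSG00000167244.22), the imprinted fetal growth factor, on chromosome 11 from 2129117 to 2149566, had 37.5, 35.0 and 35.2 CPM in knockout libraries, against 4.29, 4.10 and 4.10 CPM in parental ones. The libraries of each genotype lay close together, and the groups were far apart. It rose with a log2 change of 3.11 (edgeR SE 0.058, adjusted p = 4.69e-22), an 8.63-fold difference. The read-through gene INS-IGF2, whose span covers that of IGF2, was listed at 0 in all 6 libraries. The antisense gene IGF2-AS, inside the span of IGF2, held 9, 9 and 15 counts in knockout and 6, 0 and 3 counts in parental libraries, below the filter. Strand is not stated in the labels, so reads of IGF2 and IGF2-AS may not be told apart where they overlap. Per kilobase of the longest annotated coding transcript, IGF2 made up 99.9% ± 0.0562 of the ligand transcripts in knockout and 83.8% ± 1.36 in parental libraries (SD, n = 3 each). IGF2 and IGF1 each have transcripts of quite different lengths, so this share depends on which ones the cells make.

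The receptors differed in size of change. IGF2R (ENSG00000197081.16), on chromosome 6 from 159969082 to 160111504, had 793, 628 and 625 CPM in knockout libraries, against 179, 180 and 183 CPM in parental ones. All knockout libraries were above all parental ones, and knockout replicate 1 stood above the other knockout libraries. The log2 change was 1.92 (edgeR SE 0.091, adjusted p = 4.75e-08), and 1.81 without knockout replicate 1. IGF1R (ENSG00000140443.15), on chromosome 15 from 98648539 to 98964530, had 100.5, 84.6 and 85.4 CPM in knockout libraries, against 74.1, 73.4 and 76.0 CPM in parental ones. The groups did not overlap, but the gap was small. Its log2 change of 0.28 (edgeR SE 0.059, adjusted p = 0.000379) became 0.07 with upper quartile factors (adjusted p = 0.299) and -0.15 with total counts only (adjusted p = 0.0243), while the 13 other alternatives kept a rise. The direction of IGF1R is therefore set by the scaling. The median over all genes shifted by -0.42 (log2) with total counts only and by -0.20 with upper quartile factors, and risen genes made up 33.0% and 40.5% of all calls in place of 49.1%.

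Both receptors have very long transcripts, and library length profiles differed. Over 499 genes whose longest coding transcript has at least 10000 bases, knockout replicate 1 stood a median of 0.19 (log2) above the other knockout libraries, against 0.0047 over 2107 genes under 2000 bases. In the same comparison IGF1R stood 0.24 and IGF2R 0.34 above. The part of transcript length in the receptor values was not tested. INSR, the insulin receptor and closest relative of IGF1R, had 29.9 ± 1.17 CPM in knockout and 47.4 ± 0.137 CPM in parental libraries (SD, n = 3 each), a fall with a log2 change of -0.67 (edgeR SE 0.049, adjusted p = 4.84e-11) that held under all 15 alternatives. Per kilobase, IGF2R stood 6.57 ± 0.266 times above IGF1R in knockout and 2.11 ± 0.0219 times above it in parental libraries (SD, n = 3 each).

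**Figure D2:**
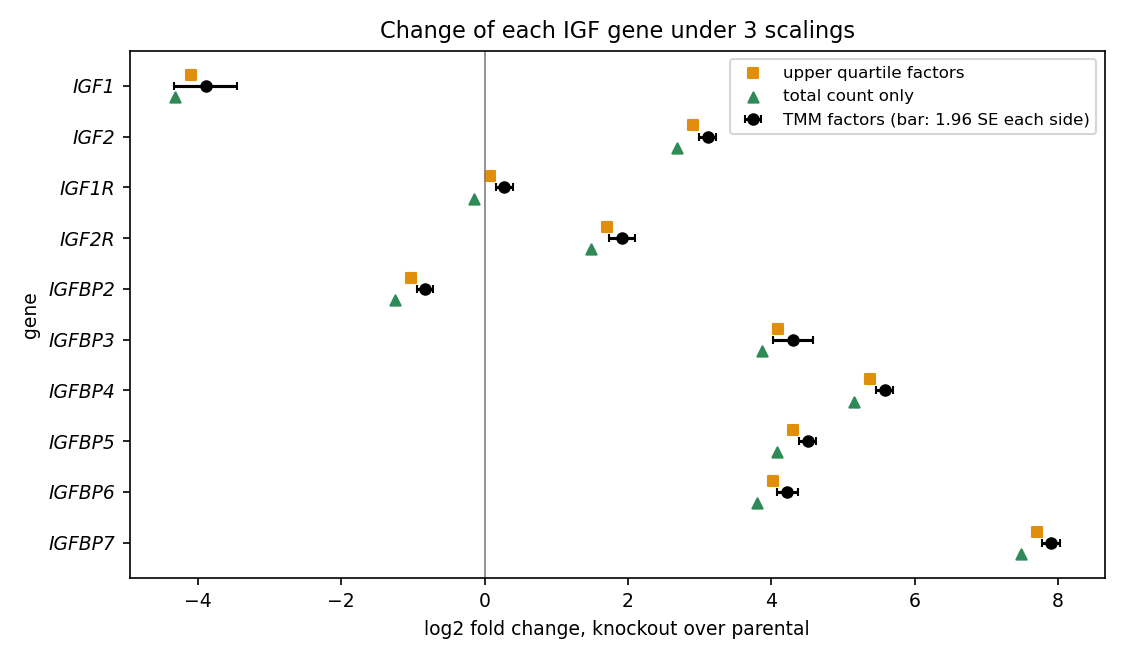
Log2 fold change, knockout over parental, of the 10 IGF genes with TMM factors (black, bars of 1.96 SE each side), upper quartile factors (orange) and total counts only (green). IGF1R crosses 0, from 0.28 with TMM factors to -0.15 with total counts only, while the other 9 genes keep their side.

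Of the 6 binding proteins 5 rose and IGFBP2 fell. IGFBP2 (ENSG00000115457.10), a binding protein abundant in fetal tissue that can also bind integrins, lies on chromosome 2 from 216632828 to 216664436. It had 514, 513 and 503 CPM in knockout libraries, against 1002, 848 and 868 CPM in parental ones. The knockout libraries lay closely together below all parental libraries, of which replicate 1 was the highest. The fall was moderate, with a log2 change of -0.83 (edgeR SE 0.057, adjusted p = 4.09e-11), and it was -0.73 without parental replicate 1. Its neighbour IGFBP5, which binds matrix as well as IGFs, moved the other way. IGFBP5 (ENSG00000115461.5) lies 7.67 kb away, from 216672105 to 216695549, with no other coding gene between them. It had 549, 527 and 486 CPM in knockout libraries, against 22.9, 22.6 and 23.1 CPM in parental ones. The parental libraries were nearly equal, and all knockout libraries were far above them, with a log2 change of 4.51 (edgeR SE 0.059, adjusted p = 8.90e-25).

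IGFBP4 (ENSG00000141753.7), a binding protein that mostly inhibits IGF action until it is cleaved, lies on chromosome 17 from 40443450 to 40457725. It had 623, 628 and 592 CPM in knockout libraries, against 13.7, 12.4 and 12.4 CPM in parental ones. Both groups were tight and widely separated, a rise of 47.8-fold with a log2 change of 5.58 (edgeR SE 0.062, adjusted p = 6.28e-26). IGFBP6 (ENSG00000167779.9), which prefers IGF2 over IGF1, lies on chromosome 12 from 53097667 to 53102340. It had 38.0, 38.3 and 36.5 CPM in knockout libraries, against 2.27, 1.85 and 1.92 CPM in parental ones. The knockout libraries lay within a narrow range above all parental ones, and the log2 change was 4.22 (edgeR SE 0.073, adjusted p = 3.69e-22).

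IGFBP3 (ENSG00000146674.16), the main IGF carrier of serum, lies on chromosome 7 from 45912245 to 45921272 and was scarce in both genotypes. It had 3.32, 3.08 and 2.88 CPM in knockout libraries, against 0.168, 0.159 and 0.143 CPM in parental ones, from 848, 797 and 793 counts in knockout and 64, 60 and 57 counts in parental libraries. All knockout libraries were above all parental ones, with a log2 change of 4.30 (edgeR SE 0.14, adjusted p = 1.57e-17). IGFBP1, the liver-made binding protein whose gene lies 18.6 kb from IGFBP3, did not pass the filter. It held 6, 4 and 32 counts in knockout and 3, 1 and 0 counts in parental libraries. In the library with 32 counts, knockout replicate 3, the liver transcript ALB held 189 counts, against 7 and 3 in the other knockout libraries and 3, 2 and 6 in the parental ones. Of the other listed hepatocyte markers, APOA1, APOA2, SERPINA1 and AHSG also had their highest knockout count in that library, at 80, 24, 106 and 74. TTR, at 56 counts, did not, and IGF1, also made by liver, had 16.2 counts there. The parental libraries held at most 22 counts of APOA1, 6.27 of APOA2 and 17 of SERPINA1. AHSG went the other way, with 317, 342 and 356 counts in parental libraries. The part of liver RNA in the IGFBP1 count was not tested.

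IGFBP7 (ENSG00000163453.11), a secreted relative with low affinity for IGFs that is found in vessel walls and matrix, showed the largest change among the members. It lies on chromosome 4 from 57030773 to 57110385. It had 1024, 1039 and 998 CPM in knockout libraries, against 4.36, 4.39 and 4.05 CPM in parental ones. The groups were tight and further apart than for any other member, with a log2 change of 7.90 (edgeR SE 0.066, adjusted p = 5.24e-27). The parental count was 0.611% of the knockout count, where shares here and below use mean counts before scaling. Among 3251 genes with at least 20000 counts on average in knockout libraries, none had a parental share below 0.530%, and the 20 lowest shares had a median of 0.586% and reached 0.618%. IGFBP7 was among those 20, and how much of its parental count comes from parental cells was not tested. The shares of the other members, at least 3.06%, lay above this range. Genes abundant in parental libraries had a similar lower end. Among 3990 with at least 20000 counts on average there, the lowest knockout share was 0.532%, and the 20 lowest had a median of 0.617%.

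The sequences before the transcription starts are shown because the fusion binds DNA through the ETS core GGAA, most strongly where it is repeated. They are RefSeq promoter windows of 250 bases before a start (GRCh38.p14), 5′ to 3′ on the gene's strand, with GGAA, or TTCC for the other strand, in capitals. The 2 fallen members are given at their most upstream start among these windows, with the 2 most strongly risen members that have an entry and the one with most matches. For IGF1 that window overlaps the span of the gene, which ends at 102481839. The windows are chr12:102481748-102481997 (minus strand) for IGF1, chr2:216632578-216632827 (plus strand) for IGFBP2, chr17:40443200-40443449 (plus strand) for IGFBP4, chr2:216695550-216695799 (minus strand) for IGFBP5 and chr12:53097417-53097666 (plus strand) for IGFBP6.
IGF1: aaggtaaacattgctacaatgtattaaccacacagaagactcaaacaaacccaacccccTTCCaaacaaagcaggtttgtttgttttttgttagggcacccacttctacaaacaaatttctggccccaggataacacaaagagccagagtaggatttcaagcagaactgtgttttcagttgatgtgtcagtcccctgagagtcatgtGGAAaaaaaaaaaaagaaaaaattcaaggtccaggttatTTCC
IGFBP2: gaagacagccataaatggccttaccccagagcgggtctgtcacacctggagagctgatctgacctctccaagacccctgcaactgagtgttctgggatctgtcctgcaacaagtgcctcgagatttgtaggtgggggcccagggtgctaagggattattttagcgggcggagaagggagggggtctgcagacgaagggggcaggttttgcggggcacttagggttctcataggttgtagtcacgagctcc
IGFBP4: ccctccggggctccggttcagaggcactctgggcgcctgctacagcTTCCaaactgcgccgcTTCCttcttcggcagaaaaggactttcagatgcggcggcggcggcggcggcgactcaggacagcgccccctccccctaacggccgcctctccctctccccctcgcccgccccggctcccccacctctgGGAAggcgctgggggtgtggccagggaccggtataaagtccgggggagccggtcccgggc
IGFBP5: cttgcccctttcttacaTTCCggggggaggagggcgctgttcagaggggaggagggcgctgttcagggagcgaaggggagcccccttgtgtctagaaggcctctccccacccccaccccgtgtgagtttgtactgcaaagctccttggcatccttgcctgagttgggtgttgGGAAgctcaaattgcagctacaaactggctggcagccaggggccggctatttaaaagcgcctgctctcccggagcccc
IGFBP6: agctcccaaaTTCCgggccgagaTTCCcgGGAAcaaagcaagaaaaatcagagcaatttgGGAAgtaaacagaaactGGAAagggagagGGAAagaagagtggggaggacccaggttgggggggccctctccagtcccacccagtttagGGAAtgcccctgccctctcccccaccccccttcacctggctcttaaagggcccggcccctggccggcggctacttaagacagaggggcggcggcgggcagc

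The promoter table used here gave 11 such windows for 8 of the 10 members, and windows of IGF2 and IGFBP7 were not analysed here. GGAA on either strand stood in 10 of the 11 windows, or 90.9%, against 92.7% of 35116 promoter windows of the same length in the table. The printed IGF1 window held 3 matches, as did that of IGFBP4, the IGFBP5 window held 2, the IGFBP6 window 7 and the IGFBP2 window 0, while the other windows of IGFBP2 held 3 and 1, and the median over all windows was 3. The tandem GGAAGGAA on either strand, each copy of which also counts as 2 GGAA matches, stood in 0 of the 11 windows and in 3.06% of all windows. A match describes letters in a window and is no evidence of binding, and longer repeats farther away were not searched.

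Within each genotype the members were ordered by level per kilobase of their longest coding transcript (GENCODE release 29). In knockout libraries IGFBP7 led with 715 ± 14.3 CPM per kilobase, followed by IGFBP2 with 354 ± 4.41, IGFBP4 with 279 ± 8.79, IGFBP5 with 83.7 ± 5.17, IGF2R with 48.5 ± 6.83 and IGFBP6 with 32.0 ± 0.828 (SD, n = 3). Below them stood IGF1R with 7.37 ± 0.730, IGF2 with 6.43 ± 0.252, IGFBP3 with 1.28 ± 0.0914 and IGF1 with 0.00969 ± 0.00408. Each of these neighbours was separate over the 3 knockout libraries. In parental libraries IGFBP2 led with 629 ± 58.4 CPM per kilobase, far above IGF2R with 12.9 ± 0.149 (SD, n = 3). IGF1R at 6.09 ± 0.111 and IGFBP4 at 5.84 ± 0.342 came next and their ranges overlapped. IGFBP5 had 3.68 ± 0.0433, IGFBP7 2.99 ± 0.131, IGFBP6 1.71 ± 0.192, IGF2 0.745 ± 0.0192, IGF1 0.144 ± 0.0123 and IGFBP3 0.0649 ± 0.00528. Among the 10 members, IGFBP7 thus stood in rank 1 in knockout and rank 6 in parental libraries.

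The pool of binding-protein transcripts was mixed in knockout cells and almost wholly IGFBP2 in parental cells. Summed per kilobase, IGFBP2 to IGFBP7 came to 1480, 1488 and 1428 CPM per kilobase in knockout libraries, against 711, 603 and 617 in parental ones. Every knockout sum was above every parental sum, 2.28 times higher on average, and 1.70 times with total counts only. Without IGFBP7 the direction depended on the scaling, with a ratio of knockout to parental sums of 1.17 with TMM factors, 1.02 with upper quartile factors, where the groups overlapped, and 0.874 with total counts only. IGFBP2 made up 24.2% ± 0.255 of the pool in knockout and 97.8% ± 0.110 in parental libraries, and IGFBP7 made up 48.8% ± 0.270 in knockout and 0.466% ± 0.0406 in parental libraries (SD, n = 3 each). IGFBP4 made up 19.1% ± 0.180 of the knockout pool and 0.909% ± 0.0303 of the parental pool. The ligand transcripts summed to 6.44 ± 0.256 CPM per kilobase in knockout and 0.889 ± 0.0169 in parental libraries, so binding-protein transcripts stood 228 ± 8.63 times above the ligands in knockout and 723 ± 54.9 times above them in parental libraries (SD, n = 3 each). These sums are descriptions of transcripts, with no test, and say nothing of secreted protein.

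**Figure D3:**
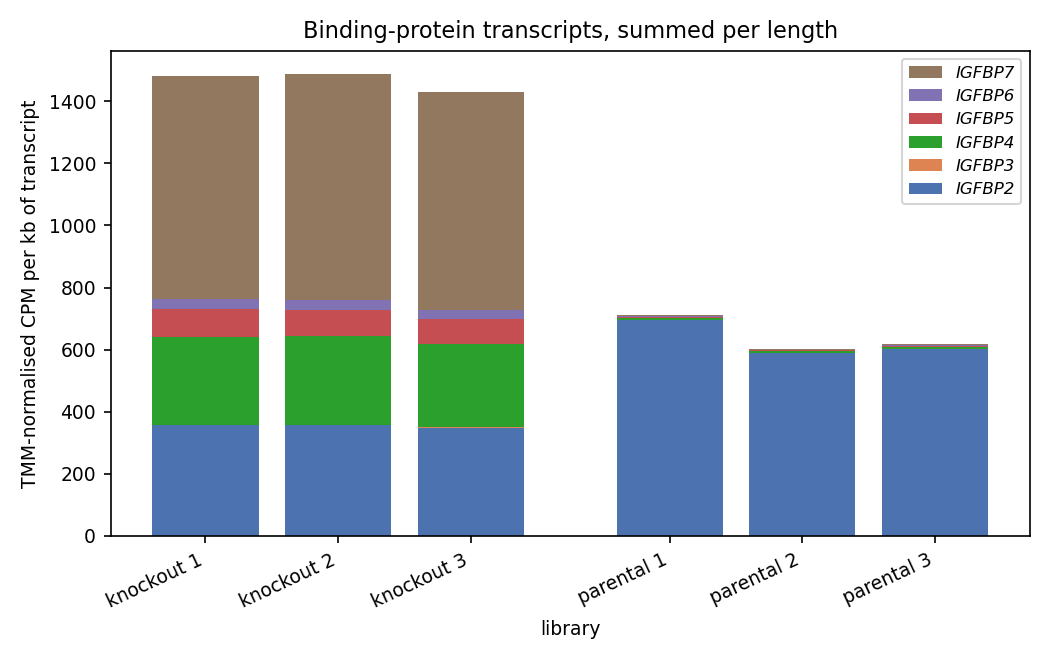
Summed level of the transcripts of 6 binding proteins in each library, in TMM-normalised CPM per kilobase of the longest coding transcript, with the 3 knockout libraries left of the 3 parental ones. The parental bars, between 603 and 711, are nearly all IGFBP2, while the knockout bars, between 1428 and 1488, are mostly IGFBP7, IGFBP2 and IGFBP4.

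In a list of proteases, their inhibitors, carriers and the binding-protein relative IGFBPL1, 8 of 10 tested genes rose and 2 fell, against 36.3% and 37.5% of all tested genes, at a median log2 change of 1.76. With total counts only 6 rose and 3 fell, and with upper quartile factors 7 rose and 2 fell. HTRA1, a secreted serine protease that cleaves IGFBP5, had 449 ± 14.3 CPM in knockout and 2.56 ± 0.187 CPM in parental libraries (log2 change 7.46, SE 0.070; edgeR adjusted p = 7.66e-27). ADAM12, a metalloprotease that cleaves IGFBP3 and IGFBP5, had 191 ± 12.9 CPM in knockout and 1.30 ± 0.0789 CPM in parental libraries (7.20, SE 0.074). The lysosomal protease CTSD rose by 2.49 (SE 0.056) on the log2 scale. The pappalysins moved apart, and were singled out after their values were seen. PAPPA, which cleaves IGFBP4, had 92.8 ± 11.8 CPM in knockout and 258 ± 7.83 CPM in parental libraries, a fall with a log2 change of -1.47 (edgeR SE 0.078, adjusted p = 5.42e-09). PAPPA2, which cleaves IGFBP5, had 6.60 ± 0.681 CPM in knockout and 0.0365 ± 0.0187 CPM in parental libraries (7.49, SE 0.19). STC2, an inhibitor of PAPPA, rose to 586 ± 25.5 CPM in knockout libraries, against 58.5 ± 1.43 CPM in parental ones (3.33, SE 0.053). The parental counts of HTRA1, ADAM12 and PAPPA2 were 0.834%, 0.995% and 0.806% of the knockout counts, close to the lowest shares given for IGFBP7. All SDs here are over n = 3 libraries.

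The list of receptor adaptors, which also holds the receptors INSR and INSRR, was split, with 7 of 15 genes rising and 8 falling and a median log2 change of -0.18, and only 4 rising and 9 falling with total counts only. IRS2, the insulin receptor substrate that passes receptor signals to PI3K, had 17.1 ± 0.947 CPM in knockout and 472 ± 27.7 CPM in parental libraries (SD, n = 3), a fall with a log2 change of -4.79 (edgeR SE 0.064, adjusted p = 1.11e-24). Its relative IRS1, named after its values were seen, had 141 ± 8.61 CPM in knockout and 69.2 ± 3.38 CPM in parental libraries (1.03, SE 0.054). SHC1, the adaptor toward RAS, rose by 1.03 (SE 0.047) on the log2 scale. RACK1, a scaffold that binds IGF1R, fell by 1.44 (SE 0.048) and the adaptor SH2B2 fell by 2.02 (SE 0.080).

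Downstream, 13 of 23 genes of PI3K, AKT, mTOR and FOXO rose, 5 fell and 5 did not pass, at a median log2 change of 0.21. With total counts only 10 rose and 11 fell, and with upper quartile factors 11 rose and 9 fell. PIK3CD, a catalytic subunit of PI3K best known from leukocytes, had 78.0 ± 1.82 CPM in knockout and 2.85 ± 0.194 CPM in parental libraries (4.78, SE 0.063, edgeR adjusted p = 9.91e-25). The transcription factor FOXO3 rose by 1.72 (SE 0.053) on the log2 scale. Its relative FOXO1 moved the other way, to 3.41 ± 0.368 CPM in knockout libraries, against 9.84 ± 0.117 CPM in parental ones (-1.53, SE 0.078; SD, n = 3 each). Of 11 genes known to respond to FOXO factors, which PI3K and AKT hold back, 5 rose and 6 fell, with a median of -0.40. PIK3IP1, an inhibitor of PI3K, rose by 5.49 (SE 0.086), and BCL6, a transcriptional repressor, by 1.49 (SE 0.052). TXNIP, which limits glucose uptake, fell by 3.08 (SE 0.051), and IRS2 belongs to this list too. Across all 3 lists, 73.8% of tested genes passing is the background, against 100%, 78.3% and 100% of the adaptor list, PI3K and FOXO-responsive genes.

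**Figure D4:**
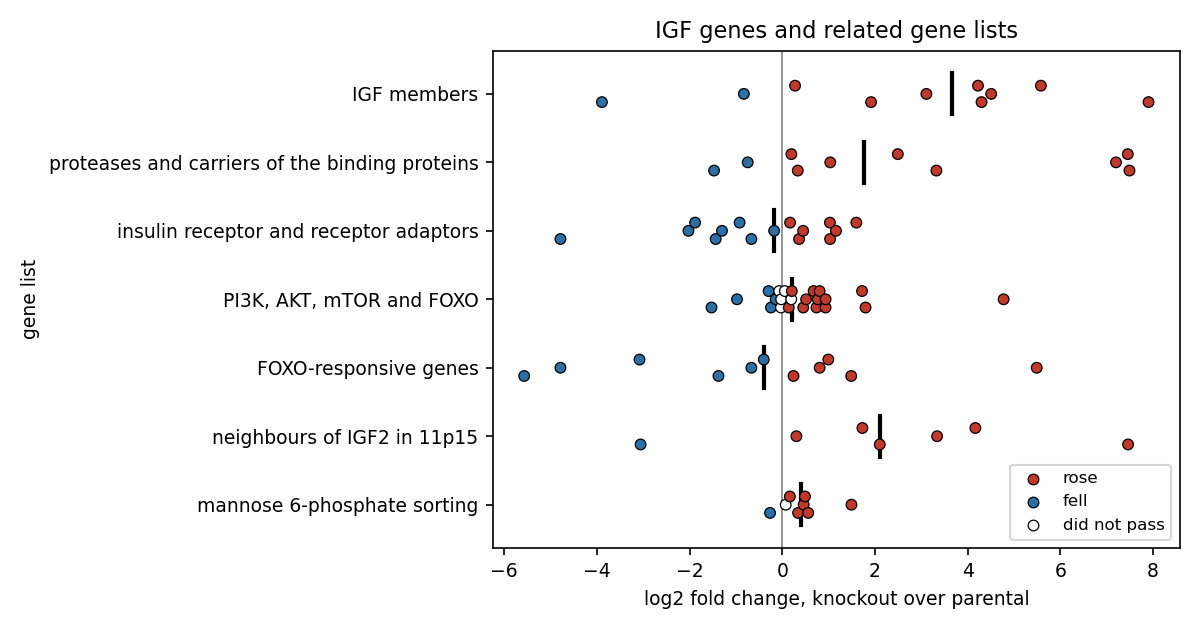
Log2 fold change, knockout over parental, of each tested gene in the IGF members and 6 related lists, in red where it rose, blue where it fell and white where it did not pass, with a black bar at the median of each list. The IGF members have a median of 3.67 and the list of receptors and adaptors one of -0.18, with IRS2 at -4.79 as their lowest point.

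Around IGF2 in 11p15, 7 of 14 listed genes were tested, of which 6 rose and 1 fell, where 73.8% of all tested genes passed in either direction, at a median log2 change of 2.10. H19, an imprinted noncoding RNA 128 kb from IGF2, held 4, 0 and 15 counts in knockout and 8, 0 and 4 counts in parental libraries and did not pass the filter. LSP1, an actin-binding protein, rose by 7.46 (SE 0.071), PHLDA2, an imprinted gene that restrains placental growth, by 4.17 (SE 0.063), and the tetraspanin CD81 by 2.10 (SE 0.053). The parental count of LSP1 was 0.830% of the knockout count, again near the lowest shares. CDKN1C, an imprinted inhibitor of cyclin-dependent kinases, fell to 0.552 ± 0.0169 CPM in knockout libraries, against 4.60 ± 0.612 CPM in parental ones (SD, n = 3 each; -3.06, SE 0.12, edgeR adjusted p = 3.59e-16).

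Of 8 genes of mannose 6-phosphate sorting, the lysosomal route that IGF2R serves, 6 rose, 1 fell and 1 did not pass, so that 87.5% passed against 73.8% of all tested genes, at a median log2 change of 0.40. With total counts only 2 rose and 3 fell. GNPTAB, which makes the mannose 6-phosphate tag, had 56.9 ± 3.51 CPM in knockout and 20.2 ± 0.539 CPM in parental libraries (SD, n = 3; 1.49, SE 0.054, edgeR adjusted p = 1.31e-16). M6PR, the smaller receptor of the tag, rose by 0.56 (SE 0.049), and by 0.14 with total counts only. The rises of AP1M1, a clathrin adaptor subunit, at 0.49 (SE 0.049) and of GNPTG, a partner subunit of GNPTAB, at 0.46 (SE 0.052) were lost with total counts only (edgeR adjusted p = 0.130 and 0.452).

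Over the 6 libraries and 11699 genes of at least 5 CPM, the named genes with profiles nearest to IGFBP7, by Euclidean distance between mean-centred log2 CPM, were BMP4 at 0.077, COL1A2 at 0.098 and DKK3 at 0.10. BMP4, a secreted bone morphogenetic protein, had a log2 change of 7.97, COL1A2, a chain of type I collagen, one of 7.96 and DKK3 one of 7.87. Their parental shares of 0.583%, 0.590% and 0.627% lay in or next to the range of the 20 lowest. Nearest to IGFBP2 were YDJC at 0.057, TRIM28, a transcriptional corepressor, at 0.068 and CD320, the receptor for transcobalamin, at 0.069, with log2 changes of -0.79, -0.81 and -0.83. These profiles differ mainly between genotypes, so similar log2 changes follow from the way the genes were picked.

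Library totals ranged from 301605666 to 342624492 estimated counts. EWSR1 had a log2 change of -0.26 and FLI1 one of 0.38, which was -0.04 with total counts only, but a count per gene adds fusion and normal transcripts, so neither checks the knockout. All 8 listed Ewing sarcoma markers fell, with sums of 759 to 808 CPM in knockout and 3299 to 3386 CPM in parental libraries. All 8 listed fibroblast and mesenchyme markers rose, as 5 of the 6 binding proteins did. The markers had sums of 55417 to 57094 CPM in knockout and 415 to 439 CPM in parental libraries. In knockout libraries the sum was mostly COL1A1, COL1A2 and COL3A1. Log2 changes of these markers ranged from 1.29 for PDGFRB to 8.03 for LUM, and their part in the IGF values was not tested. Sums of the other marker lists stayed low. Leukocyte markers came to 12.9 to 14.6 CPM in knockout and 4.95 to 5.96 CPM in parental libraries, mostly CD68. Endothelial markers came to 8.56 to 9.50 CPM in knockout and 0.617 to 0.756 CPM in parental libraries, mostly PECAM1 in knockout cells. Of these 6 markers 4 rose, 1 fell and 1, CDH5, was near 0 and did not pass. After PECAM1 the highest in knockout cells was VWF at 0.249 CPM. Epithelial markers summed to 0.193 to 0.483 CPM in knockout and 3.94 to 4.36 CPM in parental libraries, mostly ESRP1 in parental cells. ESRP1 and EPCAM fell, CDH1 did not pass, and KRT5, KRT14 and KRT19 were below the filter. Hepatocyte markers summed to 0.421 to 1.92 CPM in knockout and 1.05 to 1.28 CPM in parental libraries. Skeletal muscle markers summed to 0.239 to 0.254 CPM in knockout and 0.261 to 0.305 CPM in parental libraries, with MYF5 at 0 in every library.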

How the data were processed

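RNA was taken from 3 EWS-FLI1 knockout and 3 parental A673 libraries. Oligo-dT beads enriched mRNA, and the kit was NEBNext Ultra II RNA, per the labels' protocols. The authors deposited estimated counts per gene, and kallisto 0.48.0 and hg38 were used, per the submitters' processing notes. Neither the annotation release nor the summing of transcripts to genes is recorded there. kallisto splits reads shared by similar transcripts, so overlapping genes are uncertain.

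Rounded counts entered edgeR 4.0.16 under R 4.3.3 (filterByExpr with minimum count 10 and minimum total 15, TMM factors, robust quasi-likelihood fit, genotype as the only term). The two-sided p-values were adjusted by Benjamini-Hochberg across 28485 genes, and 0.05 was the threshold. SE is the log2 fold change divided by the root of F. The biological coefficient of variation was 7.53%. The floor of 3 counts covers counting error only. Alternatives used other scalings and filters, DESeq2 1.42.0, limma 3.58.1, thinning, a replicate term and leaving out each library. The steps were tested on simulated counts.

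The members, the gene lists and the tests were chosen with earlier results of these data known. Named genes were the 10 members, INSR, IGFBP1, INS-IGF2, IGF2-AS, H19, EWSR1 and FLI1, up to 4 genes of at least 1 CPM with the smallest adjusted p per list (1 of them is not reported here), and the 3 genes nearest in profile to the most risen and most fallen member of at least 5 CPM. Gene positions and promoters come from RefSeq (GRCh38.p14), transcript lengths from GENCODE release 29. Several members carry later ID versions in the deposited table than in that release, so levels per kilobase are approximate. Chi-square per degree of freedom between replicates, from genes of 100 counts or more, lay between 11.1 and 78.1, so no pair agreed within sampling noise.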

Additional observations from a re-analysis of the deposited data

How the results depend on the processing

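Over 15 alternatives per result, 9 of the 10 members kept their direction and passed the test in each, and IGF1R did in 13. IGF1R had a log2 fold change of 0.072 with upper quartile factors (adjusted p = 0.299) and of -0.15 with total counts only (adjusted p = 0.0243), and lay between 0.20 and 0.33 when 1 library was left out. Its adjusted p ranged from 2.74e-07 to 0.299. The members thus numbered 7 risen and 3 fallen with total counts only and 7 and 2 with upper quartile factors. Asking for at least 1 CPM in 3 libraries left 15383 genes to test, of which 6650 rose and 6975 fell, against 10328 and 10687 of 28485. Samples with the same replicate number did not deviate together (correlations of -0.28, -0.09 and -0.02 over 11699 genes). No knockout library correlated best with the parental library of its own number, so these values gave no sign of pairing by number. Deviations from means of 3 libraries constrain each other, so this check cannot exclude pairing. With the replicate number as a block 10041 genes rose and 10377 fell, the members stayed at 8 and 2, and IGF1R had 0.27 (adjusted p = 0.000583). With total counts only, AP1M1 and GNPTG were lost at 0.07 and 0.04, and FLI1 had -0.040 (adjusted p = 0.384). Chosen after seeing the data, the pool of binding proteins was also summed under other scalings: without IGFBP7 its ratio of knockout to parental was 0.874 with total counts only and 1.02 with upper quartile factors, against 1.17. Depth limits IGF1 in knockout cells, with 13.2 to 26.8 counts per library, and IGFBP1, H19 and IGF2-AS in both genotypes.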
